A study of Mus musculus with 17 samples.

Results

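The first 4 h of a transcription block were examined in wild-type (WT) adult mouse heart muscle cells, by comparing WT libraries taken 4 h after actinomycin D with WT libraries taken at baseline. The members were chosen by their labels alone and come to 5 of the 17 libraries of the series, 3 at 0 h and 2 at 4 h. All libraries are total RNA from ventricular myocytes of 60-day-old (P60) mice. Enzymatic perfusion on a Langendorff apparatus freed the cells, which were left to attach to laminin for 3 h in medium with serum, and moved to serum-free medium with actinomycin D at 2 µg/mL. The contraction inhibitor BDM was present throughout. The other libraries used here for comparison are 3 WT libraries at 8 h and 6 libraries from mice labelled MBNL1 loss-of-function (KO), 3 at 0 h and 3 at 4 h. KO below stands for that label. The total level of Mbnl1 shows no loss under it (values are given with the splicing regulators). The 4 h libraries differ from baseline in both the drug and the hours in culture, and no untreated 4 h library was analysed, so these cannot be told apart.

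Actinomycin D binds DNA and stops RNA polymerases, so under a complete block the transcripts present at the start can only decay or persist. Whether the block was complete in these cells was not tested. Messenger RNAs that encode signalling regulators and transcription factors tend to decay fast, in part through AU-rich elements in their 3′ untranslated regions (UTRs), while those of contractile and metabolic proteins tend to be long-lived. Sequencing reports each transcript as a share of its library, so a stable transcript gains share when others decay. Changes below use TMM scaling between libraries unless another is named, and library size alone gives the change in share. Rises are relative to the other transcripts, and whether any reflects new RNA was not tested. Since the samples are bulk RNA, fewer cells of a type and less RNA per cell cannot be told apart.

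The 5 libraries held 17059736 to 17612131 gene counts, and 13230 of 55487 genes were tested. Mitochondrially encoded genes took 36.0 to 41.8% of counts at 0 h and 38.4 to 39.5% at 4 h, and cytosolic ribosomal protein genes 0.884 to 0.989% and 0.920 to 0.957%. On the first principal component of the WT libraries, with 61.7% of the variance, both 4 h libraries lay apart from all 3 at 0 h. Whether replicate libraries stem from different mice is not stated, so p-values measure only the spread between these samples, which may be technical. Of 10 cardiomyocyte marker genes none was at 0 in any group, and their summed level was 39529 to 42396 CPM (counts scaled to library size with TMM factors) at 0 h and 46754 to 51155 at 4 h. Endothelial, fibroblast and macrophage markers were also present at 0 h, at 618 to 663, 377 to 390 and 198 to 229 CPM.

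Transcripts of signalling regulators, immediate early factors and of blood vessel and immune cells lost share within 4 h, some by over 4-fold. Contractile and metabolic transcripts rose by a small amount with TMM scaling, as did 67.3% of genes at a mean log2 CPM of 6 or above. With edgeR's quasi-likelihood test at a Benjamini-Hochberg adjusted p of 0.05, 3777 genes were called (28.5%), 1671 lower (12.6%) and 2106 higher (15.9%). Falls were larger than rises: 747 genes (5.65%) were lower by more than 2-fold and 24 (0.181%) higher by more than 2-fold. Which genes were called higher depended on how libraries were scaled. Scaling by library size alone moved the median of all genes from a log2 fold change of 0.02 to -0.15, with 3186 genes lower and 119 higher. Scaling to ribosomal protein counts moved it to -0.17, with 3045 lower and 44 higher. Of the 1671 genes called lower, 1630 (97.5%) were called lower under all 5 scalings tried, against 43 of the 2106 called higher (2.04%). Leaving out either 4 h library reduced the calls higher to 1114 (without replicate 1) and 1088 (without replicate 2). Over the 5 WT libraries the 0 h and 4 h values did not overlap for 6610 genes (50.0%).

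**Figure D1:**
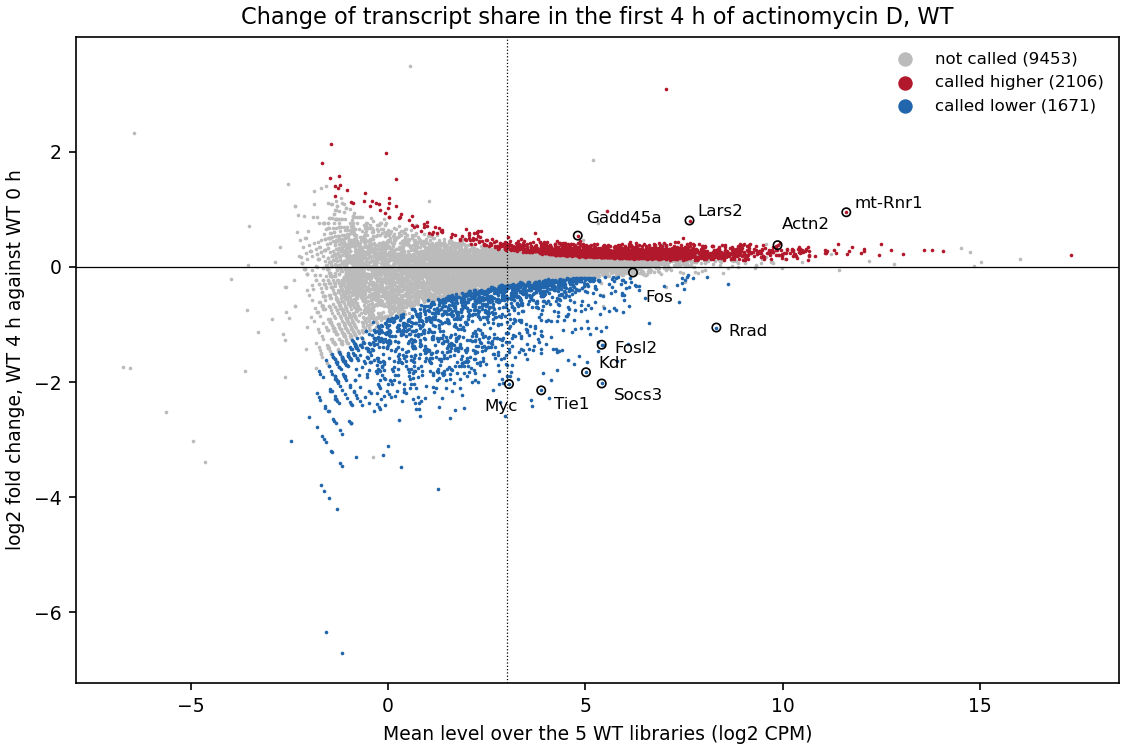
Each point is 1 of the 13230 genes tested, with its mean level over the 5 WT libraries (log2 CPM, horizontal) and its log2 fold change from 0 h to 4 h (vertical); blue points were called lower, red points higher, and the dotted line marks a mean log2 CPM of 3. Falls beyond -2 lie mostly at low levels, while most red points form a thin band between 0 and 0.5 at high levels. The single red point near 3 is Gm28661, which was high in 1 library.

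Direction followed abundance. Among the 1934 genes with a mean log2 CPM under 0, 13.9% were called lower and 1.09% higher. Among the 1470 genes at 6 or above, 1.77% were called lower and 67.3% higher. Above a mean log2 CPM of 3, the floor used for naming genes, 560 of 6911 genes were lower (8.1%) and 1991 higher (28.8%).

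The lowest genes above that floor were signalling regulators and genes of vessel and immune cells. Socs3, the feedback inhibitor of IL-6 family cytokine signalling, stood at 56.9, 64.4 and 61.6 CPM at 0 h and at 15.1 and 14.9 CPM at 4 h. Both 4 h values lay far under all baseline values, for a log2 fold change of -2.03 ± 0.08 (SE, edgeR adjusted p = 7.8e-31). Myc, the growth-promoting transcription factor, measured 11.5, 11.9 and 12.5 CPM at 0 h against 3.16 and 2.69 CPM at 4 h. Its log2 fold change was -2.03 ± 0.15 (adjusted p = 2.86e-18), again without overlap. Gadd45g, a stress-inducible growth arrest gene, fell from 26.9, 24.6 and 23.3 CPM to 7.17 and 5.6 CPM, a log2 fold change of -1.96 ± 0.11 (adjusted p = 1.97e-22).

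The scavenger receptor gene Stab1 fell by 2.31 on the log2 scale, from 17.6 to 18.2 CPM at 0 h to 3.21 and 4 CPM at 4 h. The endothelial receptor kinase genes Tie1 and Kdr, which encodes VEGF receptor 2, had log2 fold changes of -2.14 ± 0.12 and -1.83 ± 0.09. Kdr stood at 46.6, 46.1 and 43.3 CPM before and at 12.6 and 12.9 CPM after 4 h. Cd300lg (-1.96) and Cd93 (-1.84), both endothelial surface glycoproteins, and the macrophage genes F13a1 (-1.90) and Csf1r (-1.89) complete the nuclear genes among the 12 lowest. The other two are mitochondrial transfer RNA genes. mt-Tw, the transfer RNA for tryptophan, measured 17.2, 19.7 and 18.3 CPM at 0 h and 3.33 and 3.6 CPM at 4 h, a log2 fold change of -2.41 ± 0.13 (adjusted p = 2.51e-24). Of 16 mitochondrial transfer RNA genes tested, 11 fell and none rose, with a median of -1.18, beside 12.6 and 15.9% over all genes. With DESeq2, or without WT 0 h replicate 1, 1 was called higher. Their 0 h libraries could differ, as for mt-Ta at 30.9, 21.5 and 21.5 CPM, though both 4 h values (5.57 and 4.51 CPM) lay below them.

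Immediate early and AP-1 transcription factors, which are switched on within minutes of a stimulus, fell as a group but not evenly. Of 24 tested, 16 were called lower (66.7%, beside 12.6% over all genes) and none higher. The median log2 fold change was -0.64, against 0.02 over all genes. Fosl2, an AP-1 subunit, stood at 51.8, 60.4 and 56.4 CPM at 0 h and at 22.3 and 21.7 CPM at 4 h. Its log2 fold change was -1.35 ± 0.08 (adjusted p = 2.7e-22). The transcription factor gene Csrnp1 fell by 1.25, Junb by 0.78, the antiproliferative gene Btg2 by 0.75 and Atf3 by 0.58 on the log2 scale. Jun (-0.35), Nr4a1 (-0.34) and Egr1 (-0.20) were called lower with smaller changes. Nr4a1, an orphan nuclear receptor, measured 85.7, 84.6 and 82 CPM at 0 h and 68.6 and 64.1 CPM at 4 h. Fos, the archetype of the class, was not called with TMM scaling. It was called lower with library size or ribosomal protein scaling, where 18 of the 24 were lower. It stood at 75.8, 76.7 and 74.4 CPM at 0 h and at 71.6 and 69.6 CPM at 4 h, a log2 fold change of -0.10 ± 0.06 (adjusted p = 0.234). The 4 h values of Fos lay just below the baseline values, and at 8 h its mean was 72.2 CPM.

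The other regulator lists moved the same way, to be read beside 12.6% lower and 15.9% higher over all genes. Of 12 Kruppel-like factor genes, which encode zinc finger transcription factors, 10 were lower and none higher (median -0.86). Klf6 measured 20.2, 19.3 and 17.2 CPM at 0 h and 8.32 and 8.17 CPM at 4 h, and Klf7 and Klf4 fell by 1.14 and 1.03 on the log2 scale. Of 22 NF-kappaB targets and chemokines, 16 were lower and none higher (median -0.88). Nfkbia, the inhibitor that closes the NF-kappaB feedback loop, stood at 15.5, 12.3 and 14.8 CPM before and at 4.99 and 5.43 CPM after 4 h, a log2 fold change of -1.44 ± 0.13 (adjusted p = 1.55e-14). The chemokine gene Cxcl12 fell by 1.68 and the NF-kappaB subunit gene Rel by 0.86. Cxcl12 is also made by endothelial and stromal cells, whose markers fell too, as given below.

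The same shares over all genes, 12.6% lower and 15.9% higher, apply to the next lists. Of 14 MAP kinase feedback genes, 10 were lower and none higher (median -0.59). There were 6 lower when WT 4 h replicate 2 was left out. The phosphatase gene Dusp1, which switches off MAP kinases, stood at 45.2, 43.8 and 41.7 CPM at 0 h and at 28.7 and 28.6 CPM at 4 h. Of 14 Notch targets and Hey and Hes factors, 9 were lower and none higher (median -0.79), falling to 5 without WT 4 h replicate 1. Of 12 Id protein and TGF-beta feedback genes, 6 were lower and none higher (median -0.45). Id2, an inhibitor of helix-loop-helix factors, fell by 1.22 on the log2 scale, with baseline values of 20.8, 20 and 27.5 CPM and 4 h values of 11.8 and 7.83 CPM. Of 28 short-lived signalling and transcription regulators, 15 were lower and none higher (median -0.37). Among these, Sgk1, a kinase that regulates ion channels, fell by 1.49, the chromatin factor gene Arid5b by 1.08 and the apoptosis inhibitor gene Mcl1 by 0.33.

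Of 19 genes of IL-6 family signalling, 7 were lower and 3 higher, the latter near the 15.9% over all genes, and 0 were higher with library size or ribosomal protein scaling. Beside Socs3, the kinase genes Pim3 (-1.05) and Pim1 (-0.86) and the feedback inhibitor gene Cish (-0.72), all induced through STAT factors, were lower. Il6st, the shared receptor subunit gp130, stood at 151, 163 and 151 CPM at 0 h and at 183 and 193 CPM at 4 h. Its log2 fold change was 0.28 ± 0.05 (adjusted p = 3.87e-05), a call that was lost with library size or ribosomal protein scaling. In the Gadd45 family, Gadd45g and Gadd45b (-1.20) fell, whereas Gadd45a measured 22.7, 23.6 and 24.6 CPM at 0 h and 35 and 33.9 CPM at 4 h, a log2 fold change of 0.54 ± 0.07 (adjusted p = 1.56e-08). Gadd45a was called higher under all 5 scalings. Of the 20 p53 targets and Gadd45 genes, 5 were lower and 5 higher, 25% each beside 12.6 and 15.9% over all genes. The count higher fell to 3 without WT 4 h replicate 1 and 2 without WT 4 h replicate 2.

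Heat shock and stress response genes had calls in both directions, to be read beside 12.6% lower and 15.9% higher over all genes. Of 26 heat shock proteins and cochaperones, 3 were lower (11.5%, beside 12.6% over all genes), the inducible genes Hspa1a (-0.99), Hspa1b (-0.94) and Dnajb1 (-0.82). Hspa1a and Hspa1b are near-identical neighbours, so reads between them are uncertain. In the same list 13 were called higher, or 8 without WT 0 h replicate 2, 7 without WT 4 h replicate 1, 6 without WT 4 h replicate 2 and 2 with library size alone. Hspb6, a small heat shock protein of muscle, stood at 549, 515 and 469 CPM at 0 h and at 702 and 638 CPM at 4 h (log2 fold change 0.39), and held its call under all 5 scalings. In the unfolded protein and integrated stress response list 6 of 26 were lower and 5 higher, the latter falling to 3 without WT 0 h or WT 4 h replicate 2 and to 0 with library size alone. Ppp1r15a and Ppp1r15b, the phosphatase subunits that reverse the integrated stress response, fell by 0.94 and 0.97. Of 24 ubiquitin ligase, FoxO and atrophy genes, 8 were lower and 4 higher. Without WT 4 h replicate 1 there were 5 lower and 2 higher. There was 1 higher without WT 4 h replicate 2, and 2 higher without WT 0 h replicate 2 or 3. The shares called higher in the stress response list (19.2%) and in this list (16.7%) lay near 15.9%. The insulin signalling adaptor gene Irs2 fell by 0.82.

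Genes for the RNA decay machinery had calls in both directions, to be read beside the 28.5% called over all genes. Of 30 AU-rich element binding and deadenylation factors, 6 were lower and 3 higher. Without WT 4 h replicate 1 there was 1 higher, without WT 4 h replicate 2 there were 3 lower and 1 higher, and with library size alone 13 lower and 0 higher. Zfp36, which encodes the AU-rich element binding protein tristetraprolin, stood at 40.6, 42.1 and 39.8 CPM at 0 h and at 21.7 and 20.8 CPM at 4 h, a log2 fold change of -0.94 ± 0.08 (adjusted p = 1.18e-15). Its relative Zfp36l1 fell by 0.73. Of 35 decapping, exosome and nonsense-mediated decay factors, 2 were lower (0 without WT 4 h replicate 1, 1 without WT 0 h replicate 2 or with DESeq2) and 5 higher, the latter falling to 2 without WT 4 h replicate 2 and to 1 with library size alone. Of 35 SR proteins and hnRNPs 2 were lower and 3 higher, but 4 were lower without WT 0 h replicate 3 or WT 4 h replicate 1, and 15 with library size alone. Clk1, the kinase that phosphorylates SR proteins, fell by 0.67.

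Among 15 MBNL, CELF and RBFOX splicing regulators, 2 were lower and 8 higher, beside 12.6 and 15.9% over all genes. Their median of 0.17 turned to -0.01 and -0.03 under library size and ribosomal protein scaling. The 8 calls fell to 2 without WT 4 h replicate 1 (where 1 was lower), to 5 without WT 4 h replicate 2 and to 0 with library size alone. Mbnl1, the gene named in the KO label, stood at 88.8, 86.2 and 87.2 CPM at 0 h and at 92.9 and 91.2 CPM at 4 h in WT. Its log2 fold change was 0.08 ± 0.05 (adjusted p = 0.313), and its sign changed under library size scaling (-0.10) and ribosomal protein scaling (-0.12). In the libraries labelled KO it stood at 102, 104 and 93.8 CPM at 0 h and at 99.9, 99.9 and 105 CPM at 4 h. All 6 values lay above the WT values of the same hour in TMM-scaled CPM, so the total count of the gene shows no loss under the label. TMM factors at 0 h were 1.08 to 1.19 in WT and 0.96 to 1.01 in KO, so the order at 0 h depends on the scaling. Which part of the gene the allele alters is not given in the sources used here, and a count over the whole gene does not check a partial deletion. Of 19 clock genes 5 were lower (26.3%) and 2 higher (10.5%). There was 1 higher without WT 0 h replicate 1 or WT 4 h replicate 2. Bhlhe40 (-0.67), the repressor gene Nr1d1 (-0.50) and Per1 (-0.34) fell.

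**Figure D2:**
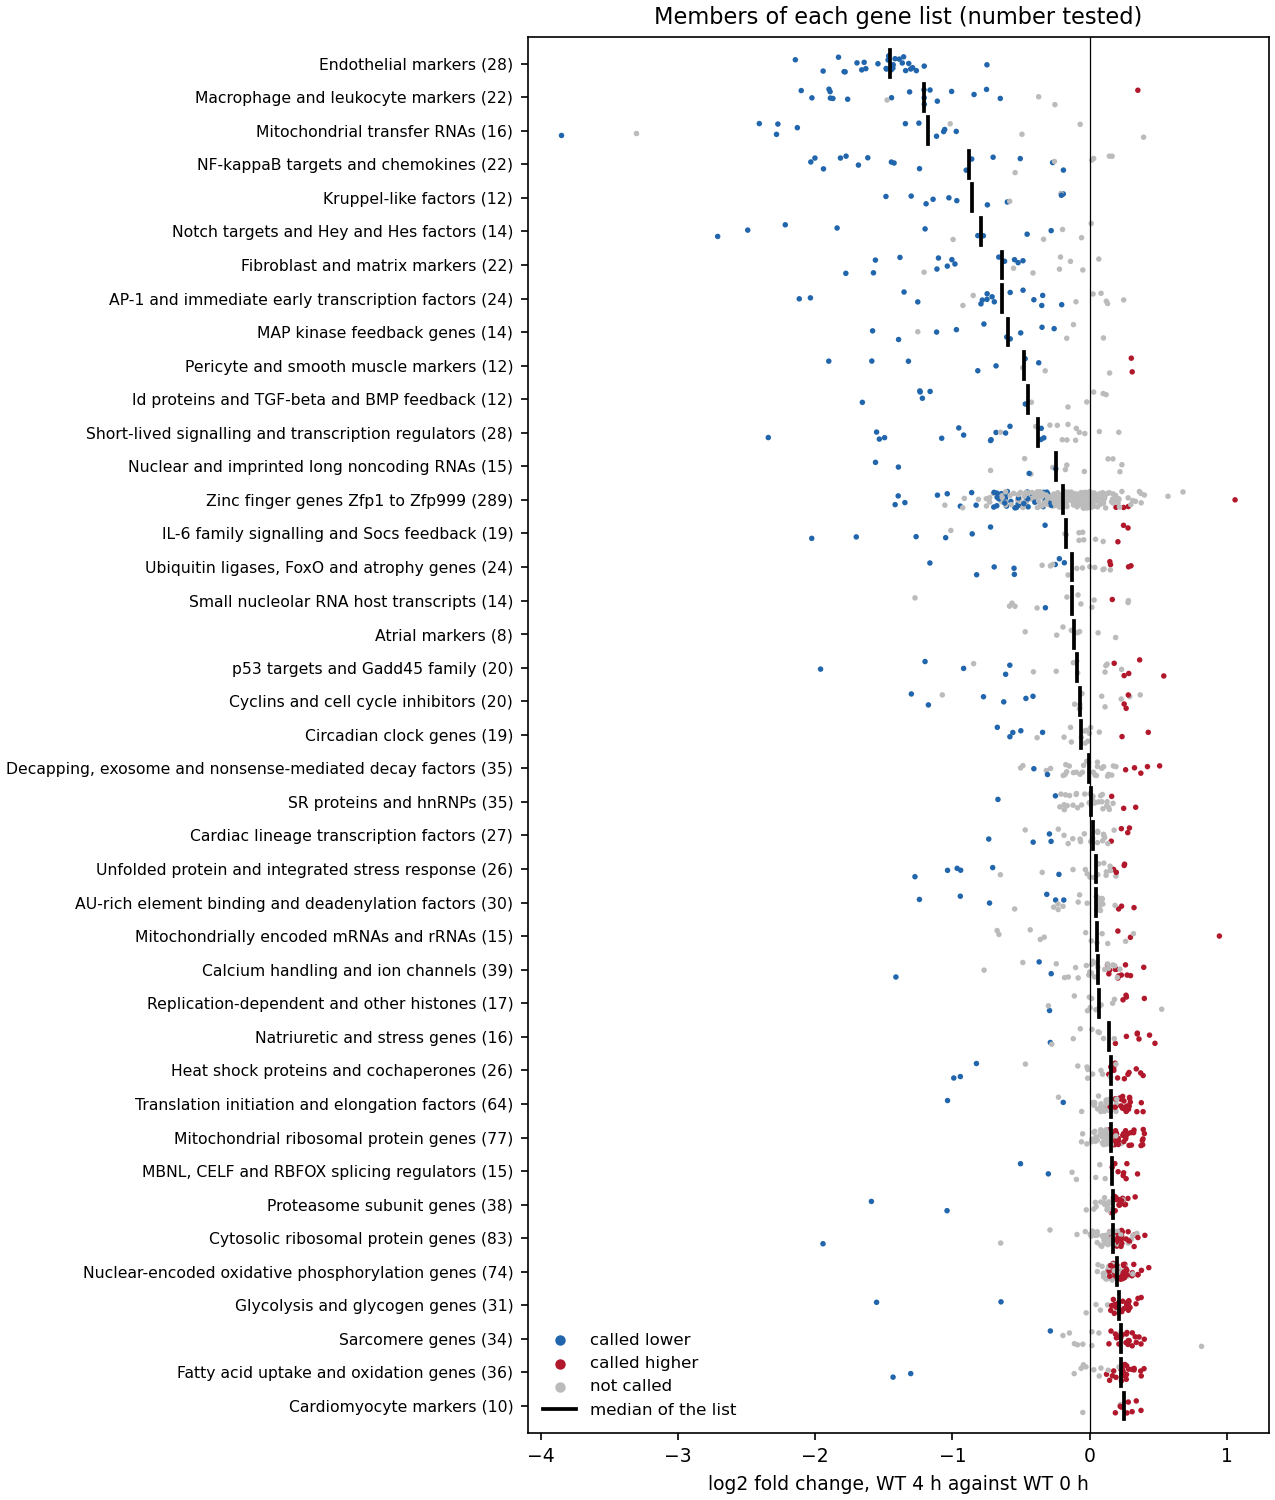
Each row is a gene list with at least 8 tested genes, each point a gene with its log2 fold change from WT 0 h to WT 4 h (horizontal), blue where called lower, red where called higher and grey where not called, and each black bar the list's median. Medians run from -1.45 for endothelial markers to 0.25 for cardiomyocyte markers, and the lists of regulators lie on the left with wide spreads.

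Most markers of the other cells of the heart fell with the regulators, beside 12.6% called lower over all genes. All 28 endothelial markers tested were called lower, 27 of them by more than 2-fold, with a median of -1.45, and 27 or 28 were lower with any single WT library left out. Their summed level went from 618 to 663 CPM at 0 h to 214 to 231 CPM at 4 h. Cdh5, the adhesion protein of endothelial junctions, stood at 43.6, 46.6 and 45.8 CPM at 0 h and at 14.5 and 14.2 CPM at 4 h. Its log2 fold change was -1.66 ± 0.09 (adjusted p = 7.61e-25). The water channel gene Aqp1 fell by 1.64, Pecam1 by 1.48, the VEGF receptor gene Flt1 by 1.46 and the von Willebrand factor gene Vwf by 1.21.

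Of 22 macrophage and leukocyte markers, 18 were lower and 1 higher (median -1.21), and their sum went from 198 to 229 CPM to 135 to 143 CPM. Lyz2, the lysozyme of macrophages, measured 27.8, 30.3 and 26.8 CPM at 0 h and 11.4 and 9.43 CPM at 4 h. The 1 higher was Lgmn, a lysosomal protease gene that is not restricted to macrophages, at 0.35, a call lost with library size or ribosomal protein scaling. Of 22 fibroblast and matrix markers, 14 were lower and none higher (median -0.64), with a sum of 377 to 390 CPM before and 274 to 285 CPM after. Dcn, which encodes the matrix proteoglycan decorin, fell by 0.98 and Sparc by 0.49. Of 12 pericyte and smooth muscle markers, 7 were lower and 2 higher, with 4 lower without WT 4 h replicate 2. Their summed level rose, from 1826.5 to 1848.3 CPM at 0 h to 2232 CPM at 4 h. The 2 higher were Des and Abcc9, which cardiomyocytes also express. All 3 erythroid markers tested were lower, or 2 with DESeq2, and these calls did not hold without WT 4 h replicate 2. They were low, with a sum of 5.65 to 8.56 CPM before and 2.74 to 4.19 CPM after, and 0 reached a mean log2 CPM of 3. Slc4a1 was at 0 in both WT groups, and none of 8 atrial markers was called. Several regulators named above are expressed in these other cells as well as in myocytes, and the part of the other cells in the falls was not tested.

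With TMM scaling, contractile and energy genes of the myocyte rose by a small amount, and most of their calls depended on the scaling. Over all genes 15.9% were called higher, and 67.3% of those at a mean log2 CPM of 6 or above (median 0.19). Of 34 sarcomere genes, 23 were called higher (67.6%) and 1 lower. Their median log2 fold change of 0.23 shrank to 0.05 under library size scaling and 0.04 under ribosomal protein scaling. There 5 and 2 were called higher. Actn2, the Z-disc protein alpha-actinin, stood at 794, 837 and 868 CPM at 0 h and at 1058 and 1103 CPM at 4 h, a log2 fold change of 0.38 ± 0.04 (adjusted p = 3.78e-10). Myl3, a ventricular myosin light chain, had 0.40 ± 0.05. Both were called higher under all 5 scalings. The 1 lower was Xirp1, which encodes an actin-binding protein of the intercalated disc, at 188, 196 and 181 CPM before and 153 and 157 CPM after (log2 fold change -0.29). Of 10 cardiomyocyte markers 8 were higher (median 0.25), falling to 4 without WT 4 h replicate 2 and to 2 with library size alone.

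Beside 15.9% higher over all genes and 67.3% at a mean log2 CPM of 6 or above, nuclear genes of oxidative phosphorylation behaved likewise. Of 74 tested, 47 were higher (63.5%) and none lower (median 0.20). The median was 0.03 and 5 were higher with library size alone, and 25 without WT 4 h replicate 2, 30 without WT 0 h replicate 2 and 31 without WT 4 h replicate 1. Of 36 fatty acid uptake and oxidation genes, 25 were higher and 2 lower. Lpl, the lipase that frees fatty acids from lipoproteins, stood at 4990, 5260 and 5046 CPM before and at 6747 and 6686 CPM after 4 h, called higher under all 5 scalings at 0.40. Its inhibitor Angptl4, a target of fatty acid and hypoxia signalling, was 1 of the 2 that fell, from 19.5, 20.7 and 18.7 CPM to 7.17 and 7.37 CPM (log2 fold change -1.43 ± 0.10, adjusted p = 3.65e-18). The other was Fabp4, a fatty acid binding protein gene of capillary endothelium, at -1.30. Of 31 glycolysis and glycogen genes 24 were higher and 2 lower, and 3 were higher with library size alone.

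Genes of ribosomes and translation were also called higher more often than lower, beside 15.9% higher over all genes. At a mean log2 CPM of 6 or above, 67.3% of all genes were higher. Of 83 cytosolic ribosomal protein genes 32 were higher and 1 lower with a median of 0.17, which was 0.00 with library size alone. The 32 fell to 20 without WT 0 h replicate 2 or WT 4 h replicate 1, to 11 without WT 4 h replicate 2 and to 1 with library size alone. Of 77 mitochondrial ribosomal protein genes 34 were higher and none lower (median 0.16, -0.02 with library size alone). That count fell to 21, 18 and 14 without WT 0 h replicate 2, WT 4 h replicate 1 and WT 4 h replicate 2. Of 64 translation initiation and elongation factors 29 were higher and 2 lower, or 2 higher with library size alone, 19 without WT 4 h replicate 1 and 16 without WT 4 h replicate 2. Of 38 proteasome genes 20 were higher and 2 lower (0 or 1 lower with DESeq2 and without any library but WT 0 h replicate 3), or 3 higher without WT 4 h replicate 2, 13 without WT 0 h replicate 2 and 0 with library size alone.

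The remaining lists stand beside 12.6% lower and 15.9% higher over all genes. Of 16 natriuretic and stress genes 1 was lower and 7 higher, or 4 higher with library size alone. Of 20 cyclins and cell cycle inhibitors 6 were lower and 3 higher, or 1 higher without WT 4 h replicate 1. Of 17 histone genes 1 was lower and 4 higher, or 2 higher without WT 0 h replicate 3, WT 4 h replicate 1 or WT 4 h replicate 2. Of 15 mitochondrially encoded mRNAs and rRNAs none was lower and 3 higher, or 6 higher without WT 0 h replicate 1. Of 15 nuclear and imprinted long noncoding RNAs 4 were lower, or 1 without WT 4 h replicate 1 and 2 without WT 0 h replicate 2 or WT 4 h replicate 2. Of 14 small nucleolar RNA hosts 1 was lower and 1 higher, and no more than 3 were called in either direction with 1 library left out. Fewer of these were called higher with library size alone, with none among the cyclins, histones and hosts and 1 among the mitochondrial genes.

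Among ion channels and calcium handling genes, 12 of 39 were higher and 3 lower, the former falling to 7 without WT 4 h replicate 1 and to 1 with library size alone. Kcnip2, a subunit of the transient outward potassium channel, rose from 164, 171 and 167 CPM to 229 and 212 CPM and was called higher under all 5 scalings. Kcnj2, the inward rectifier potassium channel, fell from 33.3, 31 and 34.4 CPM to 26.9 and 24.1 CPM (log2 fold change -0.37). Rrad, a small GTPase that inhibits calcium channels, stood at 371, 404 and 430 CPM at 0 h and at 190 and 197 CPM at 4 h. It fell by 1.05 ± 0.05 on the log2 scale (adjusted p = 1.48e-25). Of 27 cardiac lineage transcription factors 4 were lower and 4 higher, or 1 lower and 2 higher without WT 4 h replicate 1. Gata6 fell by 0.29. For each list in this paragraph the shares over all genes were 12.6% lower and 15.9% higher. The cardiac factors, with 14.8% each way, lay near them. Of 289 zinc finger genes named Zfp, 52 were lower and 4 higher (median -0.19), with 33, 29 and 27 lower without WT 0 h replicate 1, WT 4 h replicate 1 and WT 4 h replicate 2.

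Among genes above the floor with a gene name that is not a predicted one and with no overlap between the groups, no rise reached 2-fold. The largest was in mt-Rnr1, the 12S mitochondrial ribosomal RNA, at 2463, 2125 and 2227 CPM before and 4409 and 4351 CPM after 4 h. Its log2 fold change was 0.95 ± 0.05 (adjusted p = 2.7e-22), and its mean at 8 h was 7330 CPM. The paired 16S RNA gene mt-Rnr2 had 0.30, and its call was lost with library size or ribosomal protein scaling. Lars2, the mitochondrial leucyl transfer RNA synthetase, stood at 161, 147 and 151 CPM before and at 250 and 284 CPM after (0.80 ± 0.10, adjusted p = 8.78e-05). Cpe, which encodes the peptide-processing enzyme carboxypeptidase E, rose from 159, 152 and 144 CPM to 215 and 214 CPM (0.50 ± 0.05). The rest of the 12 highest were Gadd45a, Dis3l2 (0.51), Gkap1 (0.48), Mt2 (0.48), Asnsd1 (0.45), Rogdi (0.45), Supt3 (0.44), Naxd (0.44) and Acsf2 (0.44). Calls for Dis3l2, Gkap1, Mt2, Asnsd1, Rogdi, Supt3 and Naxd were lost with ribosomal protein scaling. Those of Dis3l2, Mt2 and Rogdi were also lost without WT 4 h replicate 1, and that of Rogdi without WT 0 h replicate 3. The 1 gene above the floor called higher by more than 2-fold was the predicted pseudogene Gm28661, named here after its values were seen. It stood at 16.1, 67.9 and 15.2 CPM at 0 h and at 539 and 22.4 CPM at 4 h. Its high value came from WT 4 h replicate 1 alone: the log2 fold change of 3.08 (adjusted p = 0.0257) turned to -0.59 without that library.

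AU-rich elements were examined in the 3′ UTRs of 11995 tested genes (90.7%), using GENCODE M21 annotation on GRCm38. The nonamer UUAUUUAUU, read on the transcribed strand with overlapping matches counted, is a core of such elements and was present in 877 of these UTRs (7.31%). The sites below are shown because they belong to falling regulators with the nonamer and to Fos, which carries it and was not called with TMM scaling. Each is written as DNA, 5′ to 3′ on the transcribed strand, with the nonamer in capitals.
Ppp1r15a: tagtttcctaTTATTTATTtatttattta
Pim1: tttaatgtatTTATTTATTtatttatttg
Dusp1: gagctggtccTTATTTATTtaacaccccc
Fosl2: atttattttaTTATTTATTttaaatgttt
Nfkbia: ggaccacgttTTATTTATTgtgcttttga
Fos: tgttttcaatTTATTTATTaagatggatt
These lie in the last part of each transcript, beyond the stop codon: Ppp1r15a at chr7:45522957-45522985 (reverse strand), Pim1 at chr17:29495689-29495717 (forward), Dusp1 at chr17:26506159-26506187 (reverse), Fosl2 at chr5:32156871-32156899 (forward), Nfkbia at chr12:55489608-55489636 (reverse) and Fos at chr12:85477103-85477131 (forward). Ppp1r15a has 4 overlapping nonamers in a 3′ UTR of 71 nucleotides, Pim1 3, Dusp1 2, and the other three 1 each. Fos was added to this set after its values were seen. With the same nonamer, Nfkbia had a log2 fold change of -1.44 and Fos one of -0.10.

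The nonamer went with small differences. Of 11118 genes without it 13.1% were called lower, of 699 genes with 1 copy 17.5% and of 178 genes with 2 or more 17.4%. The medians of the log2 fold change were 0.03, -0.04 and -0.02. Calls lower by more than 2-fold made up 5.82, 6.72 and 5.62% of these groups. Longer UTRs also fell more often, with 8.73, 13.2, 15.0 and 16.8% called lower from the shortest to the longest of 4 equal groups, and genes with the nonamer had longer UTRs. Within the 4 length groups, from the shortest, 10.9, 18.8, 18.4 and 17.2% of genes with it were lower, against 8.69, 12.9, 14.7 and 16.7% of genes without it. In the AP-1 list 5 of 24 genes carried the nonamer (20.8%). With TMM scaling 2 of these were lower and 3, Fos included, were not called. Of the 19 genes of this list without the nonamer, 14 were lower. No test was made of these shares, and a match to the letters is not a shown binding site.

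The first 4 h were set beside the following 4 h in WT. These spans share the 4 h libraries, so an error in them enters both with opposite sign. A test of the early change minus the late change called 175 of 13230 genes below 0 (1.32%) and 396 above 0 (2.99%), 571 in all (4.32%). The first count was 102 with ribosomal protein scaling, 332 with library size alone, 73 with DESeq2, and 77 and 82 without WT 4 h replicate 1 or replicate 2. The second went from 20 to 2633 under these scalings and is not described further. The genes named next were chosen among those called from 0 to 4 h, a choice that favours a large early change.

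With TMM scaling Socs3, Gadd45g and Myc had their whole fall in the first 4 h. Cytosolic ribosomal protein genes took 0.920 and 0.957% of counts at 4 h and 1.22 to 1.34% at 8 h. Scaling to them therefore lowers every late change given here. Socs3 stood at 17.3, 17 and 17.8 CPM at 8 h against 15.1 and 14.9 CPM at 4 h, with an early change of -2.03, a late change of 0.21 and a difference of -2.24 ± 0.15 (adjusted p = 4.73e-18). Gadd45g changed by -1.96 and then 0.23, and Myc by -2.03 and then 0.08. The AP-1 genes Fosl2 (-1.35, then -0.20) and Junb (-0.78, then -0.05) and the transfer RNA mt-Tw (-2.41, then -0.09) also fell more early. The 28 endothelial markers had medians of -1.45 early and -0.64 late, with differences among them. Cdh5 changed by -1.66 and then -0.59, Aqp1 by -1.64 and then -0.61 and Tie1 by -2.14 and then -0.58, whereas Pecam1 changed by -1.48 and then -0.27 and Vwf by -1.21 and then -0.06. Of 28 endothelial markers 14 were called as falling more early. Of 22 macrophage markers none was by edgeR with TMM scaling or by DESeq2 (5 and 3 had an unadjusted p under 0.05), with medians of -1.21 early and -0.97 late. With library size alone, or without WT 8 h replicate 2, 1 macrophage marker was. A mean log2 CPM of at least 3 was reached by 17 endothelial and 6 macrophage markers, so the lists differ in precision. The endothelial count was 8 and 7 without WT 4 h replicate 1 or replicate 2, and 5 with DESeq2. Each gene named in this paragraph was called as falling more early, and kept that call with any single WT library left out, except Vwf without WT 4 h replicate 1. They also kept it under the 5 scalings, of which TMM on nuclear-encoded genes does not hold mt-Tw. With DESeq2 Myc, Gadd45g, mt-Tw, Tie1, Pecam1 and Vwf were not called.

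**Figure D3:**
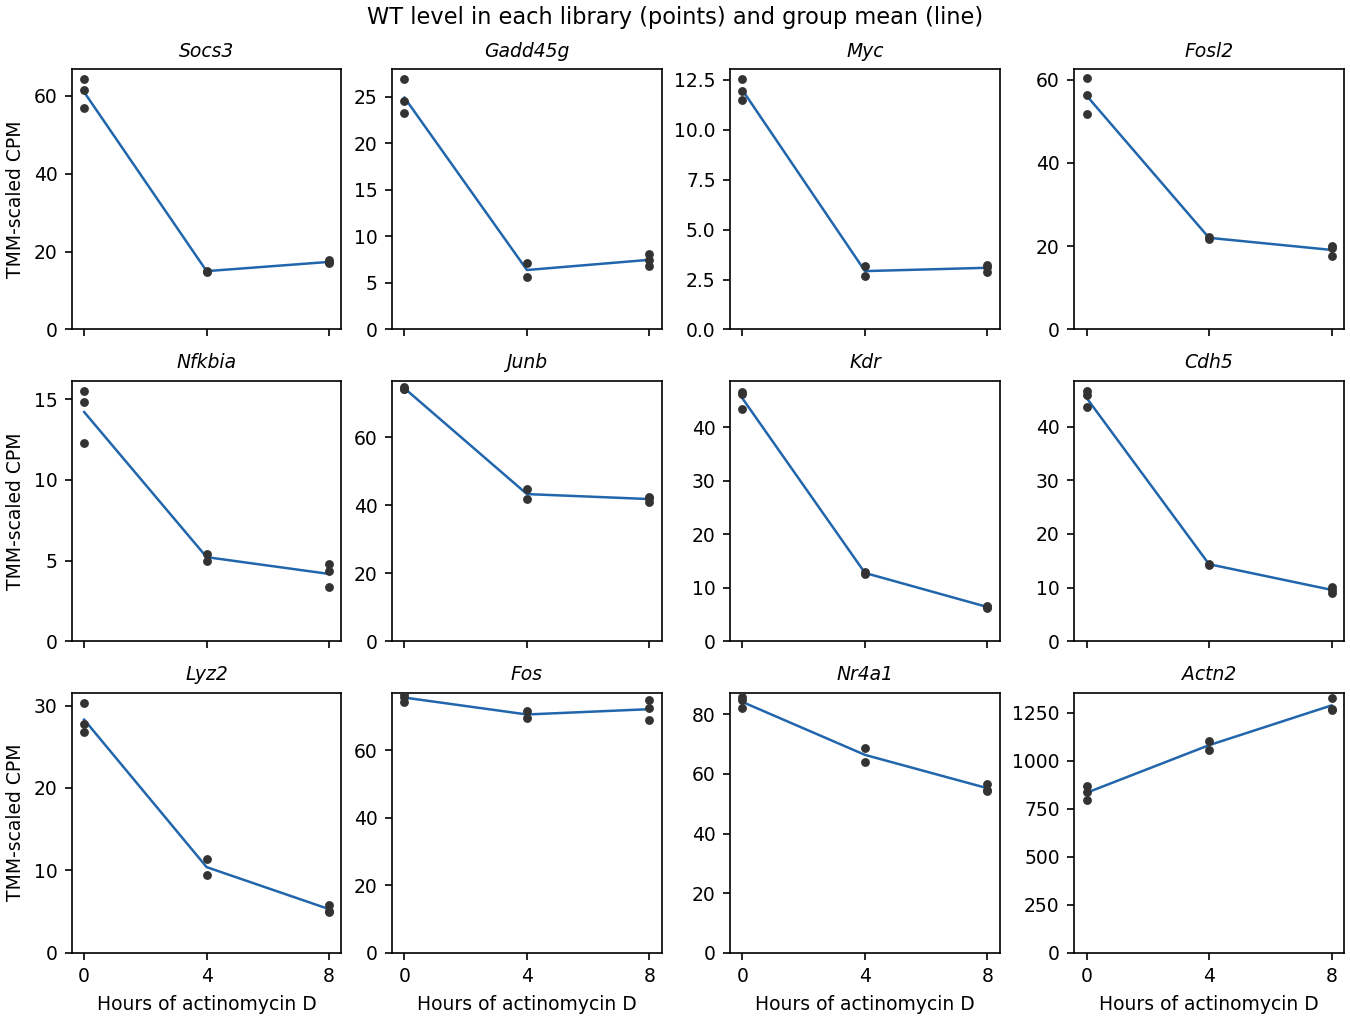
Each panel shows 1 gene in the 8 WT libraries, as TMM-scaled CPM (vertical, from 0) against hours of actinomycin D (horizontal), with points for libraries and a line through the group means. Socs3, Gadd45g, Myc and Junb drop by 4 h and stay level to 8 h, Kdr, Cdh5 and Lyz2 go on falling, the group means of Fos lie between 70.6 and 75.6 CPM, and Actn2 goes up through 8 h.

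The libraries labelled KO, which share none with the WT comparison, were fitted in the same way. Their total Mbnl1 level shows no loss, as given above. The genotypes differ further: counts of the oestrogen receptor gene Esr1 ran from 36443 to 46057 over the 9 KO libraries and from 0 to 57 over the 8 WT libraries. From 0 to 4 h in KO 1787 genes were called lower (13.5%) and 1505 higher (11.4%). Genes lower in both genotypes numbered 1050, which is 62.8% of the WT list and 58.8% of the KO list. A further 1117 were higher in both (53% of the WT list and 74.2% of the KO list). Both overlaps rest on TMM scaling, and in WT 43 of 2106 calls higher (2.04%) held under all 5 scalings. No gene was called in opposite directions. Across the 6911 genes with a mean log2 CPM of at least 3, the changes in WT and KO had a Pearson r of 0.810 and a Spearman rho of 0.732. That is a description across genes, which are not independent replicates. Myc fell by 2.13, Fosl2 by 1.60 and Nfkbia by 1.99 on the log2 scale in KO, and Fos had 0.14.

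A test of the WT change minus the change in libraries labelled KO called 46 genes (0.348%), 32 of them more negative in WT (0.242%) and 14 more positive (0.106%). The count was 24 with DESeq2, 100 and 28 when libraries were scaled by their size or by ribosomal protein counts, and 26 or 27 without KO 4 h replicate 2, KO 0 h replicate 2 or WT 4 h replicate 1. Of 22 macrophage markers 8 were called, all more negative in WT, and their median change was -1.21 in WT and -0.17 in KO. The 8 became 5 with DESeq2 or without WT 0 h replicate 2 and 4 without KO 4 h replicate 2, and 13 were called with library size alone. Lyz2 measured 9.51, 8.87 and 10.5 CPM in KO at 0 h and 8.8, 9.4 and 9.1 CPM at 4 h, so its KO values overlapped while its WT values did not. The difference for Lyz2 was -1.36 ± 0.15 (adjusted p = 8.17e-09), for the receptor gene Csf1r -1.52 ± 0.22 (adjusted p = 1.19e-05) and for the clotting factor gene F13a1 -1.35 ± 0.22 (adjusted p = 6.5e-05). Baselines differed in the same genes. The macrophage markers summed to 198 to 229 CPM in WT and 133 to 139 CPM in KO at 0 h, and to 135 to 143 and 129 to 136 CPM at 4 h. The genotypes were thus unequal at 0 h and close at 4 h, and the part of the number of macrophages in these differences was not tested. Apoe, an apolipoprotein gene of macrophages and other cells, had overlapping baselines. It stood at 28.4, 29.3 and 26 CPM in WT and 26, 26.3 and 30.5 CPM in KO at 0 h. At 4 h it stood at 15.3 and 15.6 CPM in WT and at 26.8, 27.3 and 27.8 CPM in KO, a difference in change of -0.83 ± 0.11 (adjusted p = 4.96e-07).

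Socs3 and Gadd45g also fell further in WT, by differences of -0.59 ± 0.11 (adjusted p = 0.00103) and -0.96 ± 0.16 (adjusted p = 0.000206). Both began higher in WT, Socs3 at 34.4, 33.1 and 36.7 CPM and Gadd45g at 13.6, 11.9 and 15.2 CPM in KO at 0 h. At 4 h Socs3 stood at 12.4, 12 and 14.1 CPM and Gadd45g at 6.53, 6.54 and 7.26 CPM in KO, near the WT levels. H2-D1, a class I histocompatibility gene, differed by -0.78. In the other direction Txnip, the glucose-responsive inhibitor of thioredoxin, fell less in WT. It stood at 199, 181 and 194 CPM before and 128 and 122 CPM after in WT, against 278, 259 and 254 CPM and 106, 104 and 103 CPM in KO. The difference was 0.73 ± 0.07 (adjusted p = 1.8e-11). Rrad (0.43) and Xirp1 (0.39) likewise fell less in WT, the former with a KO change of -1.49 and the latter with one of -0.67. The differences of Rrad and Xirp1 were not called when libraries were scaled by size. Each gene difference named in the paragraphs on KO kept its call with any single library left out.

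**Figure D4:**
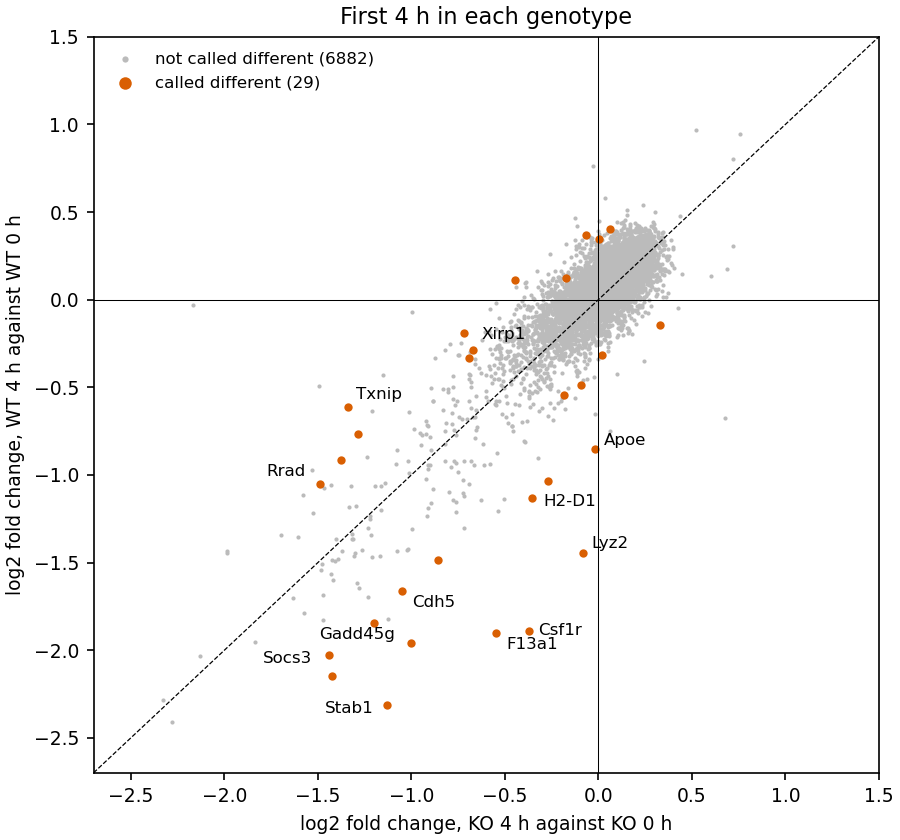
Each point is a gene with a mean log2 CPM of at least 3, with its log2 fold change from 0 h to 4 h in libraries labelled KO (horizontal) and WT (vertical); the dashed line marks equal changes, orange points are the 29 genes whose changes were called different, and 3 of the 6911 genes lie outside the axes. Most points follow the line, Csf1r, F13a1, Lyz2, Apoe and H2-D1 lie below it with KO changes nearer 0, and Txnip, Rrad and Xirp1 lie above it.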

How the data were processed

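The authors deposited raw counts per gene, in the unit count, for 55487 Ensembl genes. Tools listed in the submitters' processing notes are STAR and featureCounts, with DESeq2 and limma, and the builds are GRCm38 and mm10, without versions or roles. Strand setting and the handling of reads with several positions are not given there. Library totals across the 17 libraries ran from 17059736 to 17971617 counts, which limits precision for low genes. A deposited table of ratios for the same libraries was not used.

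Groups were taken from the labels. Genes were kept by filterByExpr (13230, holding 99.9% of counts), scaled by TMM and fitted in 1 edgeR 4.0.16 quasi-likelihood model of all 6 groups in R 4.3.3, so that all libraries share 1 estimate of the spread (biological coefficient of variation 5.28%). Contrasts were WT at 4 h against 0 h, the same in KO, their difference, and the early against the late change in WT. Benjamini-Hochberg adjustment ran over all tested genes, with calls at 0.05. The standard error is the log2 fold change over the square root of F. CPM values are TMM-scaled. The members, gene lists and tests were chosen with earlier results of these data known, so that no list is independent evidence. Named genes are the 12 lowest and 12 highest called genes with a mean log2 CPM of at least 3, no overlap between groups and no predicted name. To these were added up to 4 extreme called members per list, called genes of the 2 differences, markers, and falling genes with the nonamer. Where a list offered several, those whose call held with each library left out were described. Mbnl1, Fos and Gm28661, and some list members beyond the rule, were named after their values were seen.

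GENCODE M21 (GRCm38) supplied symbols, positions and UTRs and matched 55226 identifiers (99.5%). The UTR is that of the transcript with the longest coding sequence. Replicates of the 2 WT groups had a Pearson r of 0.991 to 0.992 across genes and differed by more than counting error, so none is a copy. The fit was also tested on simulated data. Alternatives covered scaling (RLE, library size alone, ribosomal protein counts, TMM on nuclear-encoded genes), the filter (none, or CPM of at least 1 in 2 libraries), the tool (DESeq2 1.42.0, glmTreat against a fold change of 1.2), a fit restricted to the groups compared, a replicate block, and leaving out each library.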

Additional observations from a re-analysis of the deposited data

Results flagged for a closer look

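Differences between the genotypes in the change from 0 to 4 h were the one kind of result that met a rule for a closer look, since no group has over 3 libraries in which an outlying one could be tested. In each case the edgeR test of the difference itself (WT change minus KO change, log2) passed an adjusted p of 0.05. More negative in WT were Csf1r (-1.52), Lyz2 (-1.36), F13a1 (-1.35), Stab1 (-1.18), Gadd45g (-0.96), Apoe (-0.83), H2-D1 (-0.78), Tie1 (-0.72), Cd93 (-0.65), Pecam1 (-0.62), Cdh5 (-0.61) and Socs3 (-0.59). More positive in WT were Txnip (0.73), Rrad (0.43) and Xirp1 (0.39). The calls of Tie1 and Cd93 were lost without any of several single libraries, WT 4 h replicate 2 among them (adjusted p = 0.257 and 0.285). That of Pecam1 was lost without KO 0 h replicate 2, KO 4 h replicate 1 or WT 4 h replicate 1 (adjusted p = 0.0623, 0.154 and 0.124). Endothelial markers, of which 3 of 28 were called different, summed to 618 to 663 CPM in WT and 495 to 573 CPM in KO at 0 h.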

How the results depend on the processing

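Scaling decided most of the counts. Library size alone gave 3186 genes lower and 119 higher from WT 0 h to 4 h, 100 genes with a different change in WT and KO and 352 with a different early and late change in WT. Ribosomal protein scaling gave 3045, 44, 28 and 2735, and TMM on nuclear-encoded genes gave 376 for the last count. The sign of Mbnl1 turned, to -0.10 with library size and -0.12 with ribosomal protein scaling. Against a fold change of 1.2, glmTreat called 881 lower, 38 higher, 797 in KO, 15 for the genotype difference and 51 for the early against late difference. DESeq2 called 24 for the genotype difference. Without a filter on low counts 1283 were higher, where more genes were tested. A fit of the compared groups only, with fewer libraries behind the spread, gave 1262 higher and 242 for the early against late difference.

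With 1 library left out, the WT calls numbered 1248 to 1545 lower and 1088 to 1951 higher, the KO calls 2600 to 2854, the genotype difference 26 to 53 and the early against late difference 108 to 629. The lowest counts in WT alone came without WT 4 h replicate 1 or 2, and those of the genotype difference without KO 4 h replicate 2 (26), KO 0 h replicate 2 (27) or WT 4 h replicate 1 (27). Leaving out 1 of the 2 WT 4 h libraries assumes that the other varies like the other groups.

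The labels do not say whether equal replicate numbers mark pairs. Residuals of the 2 same-numbered pairs correlated at 0.108 and -0.174, but with 2 libraries at 4 h these residuals mirror each other, so the pairing was not settled. A replicate block gave 1610 lower and 2062 higher, 3324 in KO, 48 for the genotype difference and 432 for the early against late difference. Of the 89 genes described, each but Gm28661 kept its direction and call from WT 0 h to 4 h with the block, RLE scaling, DESeq2 and both filters, and also with any WT library left out apart from Dis3l2, Mt2 and Rogdi. Library size alone ended 8 calls, ribosomal protein scaling 12 and glmTreat 21. Library size and ribosomal protein scaling each added 1 call, that of Fos as lower. For Gm28661, with 1 library left out, the change ran from -0.59 to 4.15 and the early minus late change from -0.29 to 8.88, both lowest without WT 4 h replicate 1. With the heptamer UAUUUAU in place of the nonamer, 12.5, 14.2 and 18.7% of genes with none, 1 and 2 or more copies were lower. With the longest annotated UTR of each gene the nonamer gave 13.1, 16.9 and 15.3%. Depth limits the low genes: from the 5th to the 95th percentile, log2 fold changes ran from -1.91 to 0.72 at a mean log2 CPM under 0 and from -0.05 to 0.34 at 6 and over.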
